A study of Homo sapiens with 6 samples.

Results

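Integrins are adhesion receptors made of an α and a β subunit, and 10 subunit genes were followed here: the α genes ITGA2, ITGA3, ITGA5, ITGA6 and ITGAV and the β genes ITGB1, ITGB3, ITGB4, ITGB5 and ITGB6. They are a list of symbols chosen with earlier results of these data known. All 10 were matched to an Ensembl ID among the 22091 gene IDs of the count files. RNA was sequenced from 3 established human liver cancer (hepatocellular carcinoma) lines: MHCC97L, MHCC97H and HCCLM3. MHCC97L and MHCC97H are clones of low and high metastatic potential from 1 parental line, while HCCLM3 came from MHCC97H cells that had spread to the lung, so all 3 share an origin. Each line was kept in serum-supplemented medium and sequenced once as an untreated 4 h control and once after 4 h with TGF-β1 ligand at 2.5 ng/mL. That gives 6 libraries, 3 per condition, and no repeat of any line and condition.

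The α and β subunits pair in the endoplasmic reticulum, and the pair decides the ligand. The β1 subunit joins many α partners: with α5 it binds fibronectin, with α2 collagens, and with α3 or α6 laminins. The αv subunit pairs with β1, β3, β5 or β6 and binds ligands that carry an RGD sequence, and αvβ6 is known for releasing active TGF-β from its latent complex. The β4 subunit pairs with α6 and anchors epithelial cells through hemidesmosomes. Normal hepatocytes hold few kinds of integrin, and liver tumour cells commonly carry more.

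Library totals ran from 18484954 to 23242820 counts. In a single library, a count of 0 allows up to 3 counts, or 0.129 to 0.159 CPM, where CPM is the count scaled to a common library size. The ligand's known target SMAD7, the inhibitory SMAD, did not overlap between conditions and went from 22.3 ± 3.70 to 51.3 ± 11.6 CPM (SD, n = 3 lines). The epithelial keratin genes KRT8 and KRT18 were high in every library, up to 6571 CPM for KRT8. The hepatocyte factor gene HNF4A lay between 79.0 and 208 CPM, while secreted hepatocyte products were lower in part: ALB lay between 1.26 and 22.9 CPM and AFP between 3.24 and 5.29, and SERPINA1 reached 114 CPM in MHCC97L and stayed under 1 CPM in HCCLM3. GPC3, a tumour marker, had 0 counts in all 6 libraries. The leukocyte marker PTPRC did not exceed 0.131 CPM, and the sum of 9 leukocyte markers, led by CD68, was 140 to 230 CPM in the controls and 125 to 256 after TGF-β1. In bulk RNA, fewer cells of a kind and less RNA per cell cannot be told apart. The summed level of 5 biliary markers (KRT7, KRT19, SOX9, EPCAM and CFTR) was 582 to 845 CPM in the controls and 872 to 937 CPM after TGF-β1, with EPCAM at 0.653 CPM or less and CFTR at 0. KRT7 and KRT19 made up nearly all of the sum, and its members did not move together: KRT7 was higher with the ligand in each line, while KRT19 went from 743 to 725 CPM in HCCLM3 and SOX9 from 15.9 to 12.5 CPM in MHCC97L. The part of this sum in the integrin changes was not tested.

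Promoter sequences of the genes that rose are given first. Of the 4 genes that rose after TGF-β1 (ITGA2, ITGA5, ITGB3 and ITGB6), 3 matched an entry in the RefSeq promoter table for GRCh38.p14, and ITGB3 is named only. Each run holds 250 bases before and 50 after the start site, 5′ to 3′ on the gene's own strand. Capitals mark matches, on either strand, to AP-1 (TGANTCA), the CAGA box bound by SMADs (CAGAC), TEAD (GGAATG) or the GC box (GGGCGG), and the SMAD palindrome GTCTAGAC was searched and not found in these 3 runs.
ITGA2, chr5:52989102-52989401, plus strand: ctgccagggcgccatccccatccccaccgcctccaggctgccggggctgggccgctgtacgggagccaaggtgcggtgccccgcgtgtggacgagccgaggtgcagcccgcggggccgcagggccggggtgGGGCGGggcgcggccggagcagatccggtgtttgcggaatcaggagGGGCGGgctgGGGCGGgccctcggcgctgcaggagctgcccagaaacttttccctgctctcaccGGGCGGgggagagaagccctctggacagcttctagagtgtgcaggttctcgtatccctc
ITGA5, chr12:54419217-54419516, minus strand: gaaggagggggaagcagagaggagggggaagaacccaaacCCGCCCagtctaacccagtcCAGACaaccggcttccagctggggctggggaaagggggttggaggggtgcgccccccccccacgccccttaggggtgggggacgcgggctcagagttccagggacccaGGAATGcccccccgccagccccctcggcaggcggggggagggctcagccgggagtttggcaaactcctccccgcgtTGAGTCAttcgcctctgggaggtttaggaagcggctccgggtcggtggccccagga
ITGB6, chr2:160200223-160200522, minus strand: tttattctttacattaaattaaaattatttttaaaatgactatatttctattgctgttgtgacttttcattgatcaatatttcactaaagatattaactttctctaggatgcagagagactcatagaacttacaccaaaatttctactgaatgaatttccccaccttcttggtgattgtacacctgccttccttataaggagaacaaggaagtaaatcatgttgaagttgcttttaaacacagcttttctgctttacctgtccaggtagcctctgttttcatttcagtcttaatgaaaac

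The 3 windows differed in what they held. ITGA5 had an AP-1 match (TGAGTCA) at position -6 from the start site, a CAGA box at -190, a TEAD match at -82 and a GC box at -210. ITGA2 had 4 GC boxes, at -119, -73, -63 and -9, and no other match among the marked motifs. ITGB6 had no marked match and a GC content of 31.7%, against 72.7% for ITGA2 and 69.3% for ITGA5. Over the 35116 entries of the same length in the table, 7.71% held the AP-1 letters, 45.3% the CAGA box, 14.0% TEAD, 45.0% the GC box and 0.202% the SMAD palindrome. The short SMAD box (GTCT), which overlaps the CAGA box, and the E-box (CANNTG) were left in lower case, since 84.0% and 68.7% of entries held them. ITGA2 held 0 of either, ITGA5 held 2 SMAD boxes and 1 E-box, and ITGB6 likewise 2 and 1. Windows of members that did not pass the TGF-β1 test held some of the same motifs. ITGB1 had 1 CAGA box, 1 TEAD match and 3 GC boxes, ITGAV 2 CAGA boxes, ITGB5 2 GC boxes and ITGA6 1 GC box. None of these had an AP-1 match. All of these are matches of letters only.

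The first comparison asks which integrin subunits responded to TGF-β1 within 4 h. By edgeR's quasi-likelihood test with cell line and treatment as terms, 4 of the 10 genes rose past an adjusted p of 0.05 and 0 fell. Of all 14176 genes tested, 7.79% rose and 6.65% fell by this rule, 14.4% in all. At an unadjusted p under 0.05, 6 rose and 0 fell, where 4325 of the 14176 genes passed in either direction. DESeq2 called 2 that rose and 0 that fell, and limma-voom 4 and 0. Over all genes DESeq2 called 1423 and limma-voom 1848. Without the term for line, which sets each treated library against the control of its own line, 0 of the 10 passed: the adjusted p was 0.227 for ITGA5, 0.611 for ITGA2, 0.292 for ITGB3 and 0.331 for ITGB6 (edgeR). The median change over the 10 genes was 0.20 on the log2 scale, beside -0.003 over all genes tested. With 1 library per line and condition, these p-values rest on how unlike the response was between lines. The edgeR test draws the spread of each gene toward the trend over all genes, so they do not rest on that gene's own spread alone. In that spread, differences between lines, between cultures and between libraries cannot be told apart.

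**Figure D1:**
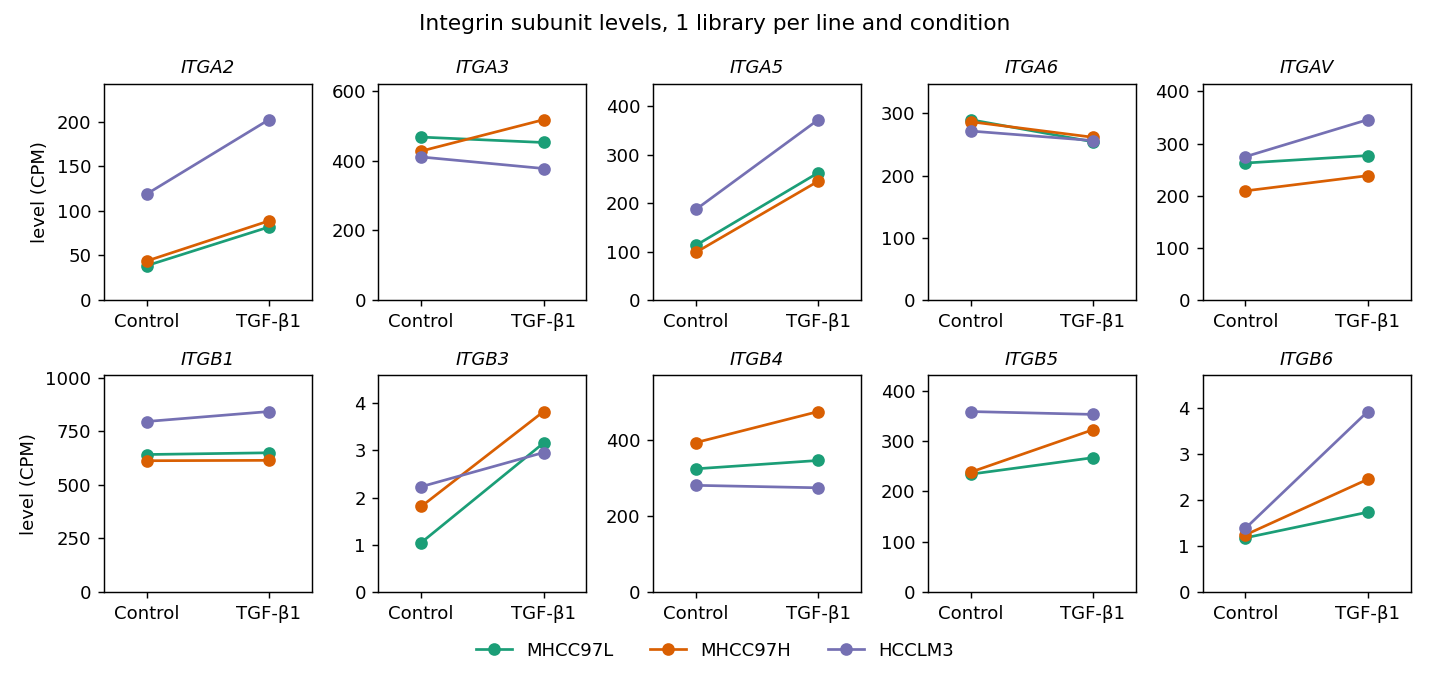
Level of each integrin subunit gene in CPM (vertical axis, from 0) in the control and TGF-β1 library of each line, with a line joining the 2 libraries of MHCC97L (green), MHCC97H (orange) and HCCLM3 (purple). ITGA5 and ITGA2 rise in all 3 lines, ITGB1 lies flat between 613 and 843 CPM, and ITGB3 and ITGB6 rise at levels under 4 CPM.

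ITGA5, which encodes the α subunit of the classical fibronectin receptor, had the smallest p of the 10. Its control levels were 113 CPM in MHCC97L, 98.3 in MHCC97H and 187 in HCCLM3, and its levels after TGF-β1 were 263, 245 and 372 CPM in the same order. Every treated library lay above every control. The change was 1.18 (SE 0.0776), 2.26-fold, and the p was 6.38e-05 after Benjamini-Hochberg adjustment of the edgeR p. Within lines it was 1.22 in MHCC97L (95% counting interval 1.15 to 1.29), 1.32 in MHCC97H (1.25 to 1.39) and 0.99 in HCCLM3 (0.94 to 1.05). ITGA5 (ENSG00000161638.10) lies on chromosome 12, 54395261 to 54419460 of GRCh38, minus strand, and had whole counts in every library.

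ITGA2 encodes the α subunit of a collagen receptor. Untreated MHCC97L held 38.5 CPM, MHCC97H 43.7 and HCCLM3 119, and with the ligand they held 81.9, 88.8 and 202 CPM. It rose in each line, yet the groups overlapped, because untreated HCCLM3 already stood above both treated MHCC97 lines. The change was 0.96 (SE 0.08), 1.94-fold, and edgeR's adjusted p was 0.000214. Within lines it was 1.09 (0.97 to 1.21), 1.02 (0.91 to 1.14) and 0.77 (0.69 to 0.84). ITGA2 (ENSG00000164171.10, chromosome 5, 52989326 to 53094779) did not have whole counts. Fractional counts appear where a read is shared out over genes, so its values are less certain than those of ITGA5.

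ITGB6 and ITGB3 rose at very low levels. ITGB6, whose product pairs only with αv, had 27 counts in untreated MHCC97L, 26 in MHCC97H and 26 in HCCLM3, and with the ligand 39, 57 and 81. In CPM that was 1.18, 1.24 and 1.38, then 1.73, 2.45 and 3.92, with no overlap between conditions. The change was 1.05 (SE 0.241) and edgeR's adjusted p was 0.0229, and DESeq2 gave it no adjusted p. In MHCC97L the counting interval of the change included 0 (0.53, interval -0.18 to 1.33), and in HCCLM3 it was 1.45 (0.85 to 2.203). Without MHCC97H or without HCCLM3 the adjusted p of ITGB6 was 0.0661 or 0.0629 by the same test, and its alternatives ran from 0.0095 to 0.331.

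ITGB3, the β subunit of the vitronectin receptor αvβ3 and of the platelet fibrinogen receptor, had 24, 38 and 42 control counts and 71, 89 and 61 after TGF-β1, in the same order of lines. Its levels were 1.04, 1.81 and 2.23 CPM, then 3.16, 3.82 and 2.95 CPM, and the conditions did not overlap. The change was 1.99-fold (0.996 on the log2 scale, SE 0.241) and edgeR's adjusted p was 0.0277. It was 1.51 in MHCC97L (0.91 to 2.33), 1.04 in MHCC97H (0.52 to 1.67) and 0.39 in HCCLM3, where the interval, -0.19 to 1.01, included 0. The call was lost by DESeq2 (adjusted p 0.096), without MHCC97L (0.182, edgeR) and without MHCC97H (0.101), and its alternatives ran from 0.00221 to 0.292. The platelet gene ITGA2B, whose product is the other partner of β3, did not exceed 0.484 CPM. A protein-coding gene annotated on the same strand overlaps ITGB3 in GENCODE 29. ITGB3 had whole counts in every library, and whether any of its reads belong to that gene was not tested.

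**Figure D2:**
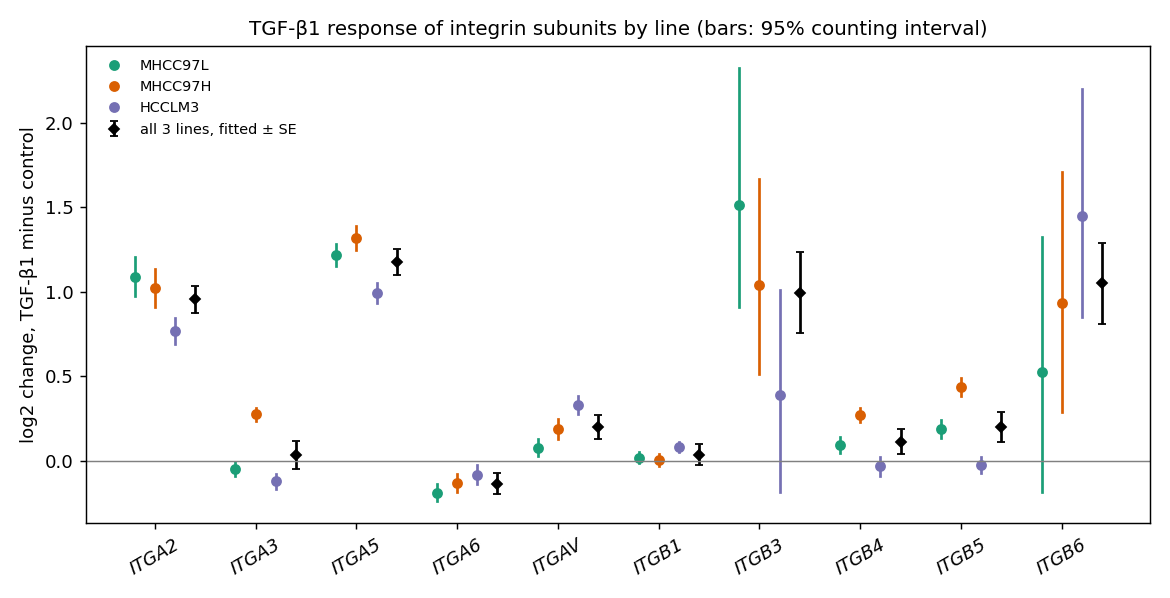
log2 change after TGF-β1 (vertical axis) for each gene in MHCC97L (green), MHCC97H (orange) and HCCLM3 (purple), with bars for the 95% counting interval, and the fitted change over the 3 lines ± SE in black. ITGA5 (1.18 ± 0.0776) and ITGA2 (0.96 ± 0.08) stand clear of 0 in every line, while the bars of ITGB3 and ITGB6 are wide and reach below 0 in 1 line each.

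The other 6 genes did not pass. ITGB1, the common β partner, held between 613 and 843 CPM in all libraries, and its change was 0.03 (SE 0.0621, adjusted p 0.751 by edgeR). ITGAV had a change of 0.20 (SE 0.0703, adjusted p 0.0946, edgeR), with 0.08 in MHCC97L, 0.19 in MHCC97H and 0.33 in HCCLM3. Each counting interval lay above 0 with TMM scaling. With library totals in its place the ITGAV changes were 0.03, 0.15 and 0.26, and the intervals do not cover this choice. ITGB5, which pairs with αv, had a change of 0.20 (SE 0.0882, adjusted p 0.163, edgeR): MHCC97L held 234 CPM without and 267 with the ligand, MHCC97H 238 and 323, and HCCLM3 359 and 353. Without HCCLM3, ITGB5 passed at 0.31 with an adjusted p of 0.00577 by the same test, and its alternatives ran from 0.00577 to 0.81. ITGB5 did not have whole counts.

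None of the laminin receptor α subunits or ITGB4 passed the test. ITGA6 was lower after TGF-β1 in each line, by -0.19, -0.13 and -0.08 in MHCC97L, MHCC97H and HCCLM3. Its control levels of 290, 287 and 272 CPM did not overlap its treated levels of 254, 262 and 256 CPM, yet the change of -0.13 (SE 0.0625) did not pass (adjusted p 0.184, edgeR). In all, 4 of the 10 genes had conditions that did not overlap, 3 higher and 1 lower, where 8.78% of all tested genes did so higher and 9.18% lower, 18.0% in all. ITGB4, the partner of α6 in hemidesmosomes, had a change of 0.11 (SE 0.0741, adjusted p 0.347, edgeR), with 324 to 346 CPM in MHCC97L, 393 to 474 in MHCC97H and 280 to 274 in HCCLM3. ITGA3 held 467 CPM without and 452 with the ligand in MHCC97L, 427 and 517 in MHCC97H, and 410 and 377 in HCCLM3. Its fitted change of 0.04 (SE 0.0843, adjusted p 0.815, edgeR) averages over these unlike directions, and was -0.02 with library totals.

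Within lines there is no replicate, so a 1.5-fold difference at 5 CPM or more in either library was used as a size rule. By it, ITGA2 and ITGA5 were higher after TGF-β1 in each line, 2 of the 8 members above that level, and 0 were lower. Of all genes at that level, 5.75% changed by 1.5-fold in MHCC97L (3.58% higher, 2.17% lower), 9.10% in MHCC97H (5.16% and 3.94%) and 5.73% in HCCLM3 (3.50% and 2.23%). ITGA5 was 2.33-fold higher in MHCC97L, 2.49-fold in MHCC97H and 1.99-fold in HCCLM3, and ITGA2 was 2.13-fold, 2.03-fold and 1.70-fold higher. Both folds were smallest in HCCLM3, the line with the highest control level of each. Whether the lines differ in response could not be tested with 1 library each.

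Levels of different genes are compared as CPM per kilobase of merged exons. On this scale ITGB1 was highest, with a mean of 115 ± 16.6 over the 6 libraries (SD), and no other member reached it in any library. ITGB4 (51.5 ± 11.2), ITGB5 (45.9 ± 8.75), ITGA3 (45.1 ± 4.96) and ITGA6 (41.3 ± 2.35) followed. Each differed from the next in that order by less than the larger of their SDs, which include differences between lines and treatments. ITGAV came next at 32.6 ± 5.59, ITGA5 at 28.1 ± 13.5 and ITGA2 at 12.1 ± 7.61. ITGB3 (0.57 ± 0.229) and ITGB6 (0.423 ± 0.226) lay far under the rest. The other 16 integrin genes of the family were lower than the 8 abundant members. The 10 members made up 96.6% to 98.6% of the summed integrin level per length in each library. They were chosen with earlier results known, so this share may reflect the choice.

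The order among the middle genes depends on which length is used. With the longest protein-coding transcript, chosen as an alternative after the data were seen, the means were 183 for ITGB1, 90.4 for ITGA3, 67.6 for ITGB5, 58.9 for ITGB4, 48.1 for ITGA6 and 47.9 for ITGA5. ITGB1 stayed highest and ITGB3 and ITGB6 lowest with either length.

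**Figure D3:**
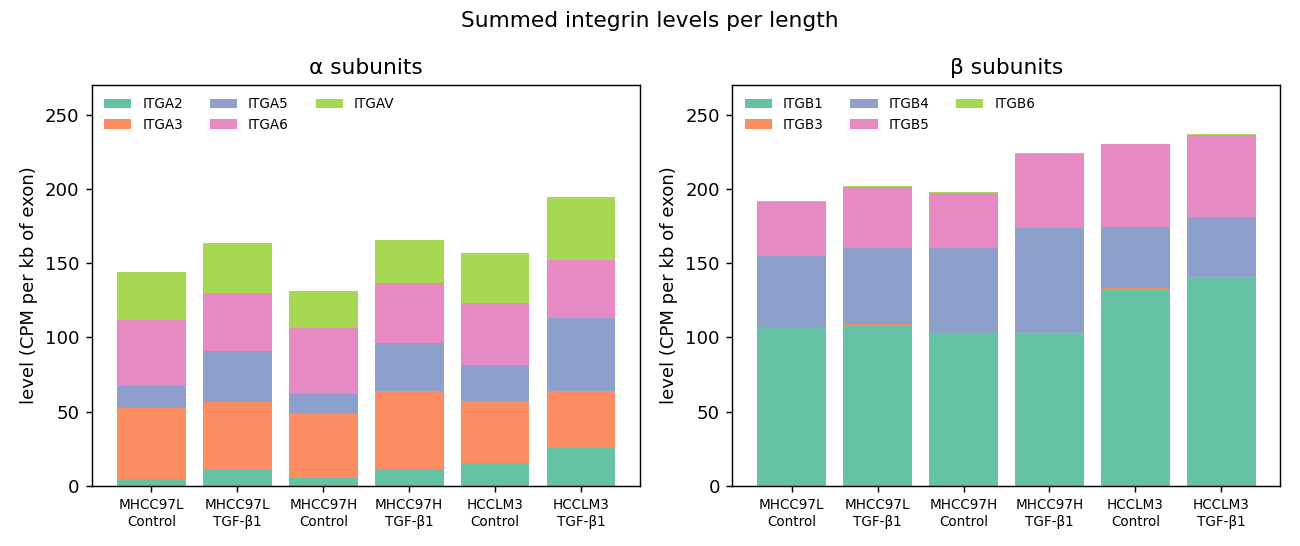
Level per length (CPM per kilobase of merged exons, stacked from 0) of the 5 α genes (left) and the 5 β genes (right) in each library. The ITGA5 segment grows with TGF-β1 in each line, from 14.9 to 34.6 in MHCC97L, while ITGB1 makes up 45.7% to 59.2% of the β stack and ITGB3 and ITGB6 are hardly visible.

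The make-up of the α genes changed with the ligand. ITGA5 was 10.4% of the summed α level per length in untreated MHCC97L, 9.87% in MHCC97H and 15.7% in HCCLM3, and 21.2%, 19.6% and 25.2% after TGF-β1. ITGA2 went from 3.38% to 6.32%, from 4.21% to 6.78% and from 9.59% to 13.2% in the same order. The level of ITGA5 per length stood at 0.335, 0.296 and 0.593 of that of ITGA6 in the controls and at 0.89, 0.808 and 1.25 after TGF-β1. With this length it exceeded ITGA6 in treated HCCLM3 alone. With the longest transcript the ratio was 0.492 in untreated MHCC97L, 0.434 in MHCC97H and 0.87 in HCCLM3, and 1.31, 1.18 and 1.83 with the ligand, so that ITGA5 exceeded ITGA6 in every treated library. On the β side ITGB6 was 0.128% to 0.353% of the summed level, so its rise hardly changed the make-up of the β genes.

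The second comparison asks how the lines, which differ in metastatic potential, differ in these genes. HCCLM3 differed from each MHCC97 line in more of these genes than the MHCC97 lines differed from each other, and the same held over all genes. In HCCLM3 against MHCC97L, 4 of 10 genes were higher past an adjusted p of 0.05 (edgeR quasi-likelihood) and 0 lower, where 15.0% of all genes were higher and 14.8% lower, 29.8% in all. At an unadjusted p under 0.05, 5 were higher and 1 lower, where 5689 of all 14176 genes passed in either direction. DESeq2 called 4 higher and 1 lower (3127 of all genes), and limma-voom 4 and 0 (4082 of all genes). In HCCLM3 against MHCC97H, 5 were higher and 1 lower, against 13.3% and 13.9% of all genes, 27.2% together. At an unadjusted p under 0.05 there were 5 higher and 2 lower, where 5404 of all 14176 genes passed in either direction. DESeq2 (2825 of all genes) and limma-voom (3648 of all genes) both called 5 higher and 1 lower. The median difference over the 10 genes was 0.34 and 0.39, beside -0.003 and 0.001 over all genes. The 2 libraries of a line differ in treatment, which is a term of the fit, and are not repeats of 1 condition. Anything else that the 2 libraries of a line share, such as a culture, cannot be told apart from the line in these p-values.

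ITGA2 differed most. It was 2.76-fold higher in HCCLM3 than in MHCC97L (1.46, SE 0.0985, adjusted p 1.57e-05, edgeR) and 2.49-fold higher than in MHCC97H (1.32, SE 0.0981, adjusted p 3.22e-05). ITGA5 was higher by 0.62 (SE 0.094) and 0.76 (SE 0.0943), ITGB1 by 0.34 (SE 0.0761) and 0.42 (SE 0.0762), and ITGB5 by 0.51 (SE 0.108) and 0.36 (SE 0.108). The 3 subunits of the α2β1 and α5β1 receptors were thus all higher in HCCLM3. ITGAV was higher than in MHCC97H by 0.47 (SE 0.0863, adjusted p 0.00402, edgeR), and its difference from MHCC97L of 0.19 did not pass (0.129).

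ITGB4 and ITGA3 were lower in HCCLM3 in value, and ITGB4 passed against MHCC97H. ITGB4 was lower in HCCLM3 than in MHCC97H by -0.64 (SE 0.0911, adjusted p 0.00102, edgeR), and its difference from MHCC97L of -0.27 (SE 0.0909) lay at the threshold (0.0525). ITGA3 differed from MHCC97L by -0.22 (adjusted p 0.143, edgeR) and from MHCC97H by -0.26 (0.0974). ITGA6, the partner of ITGB4, differed by -0.04 and -0.05 and did not pass. Some of these calls depend on the fit. ITGB4 against MHCC97L passed without MHCC97H (0.0282), by DESeq2 (0.0417), with upper quartiles (0.038), with libraries thinned to the smallest total (0.0492) and with genes of 1 CPM or more (0.0494). ITGB6, higher than in MHCC97L by 0.83 (SE 0.289, adjusted p 0.0591, edgeR), passed with thinned libraries (0.0277). ITGB5 against MHCC97H, at an adjusted p of 0.0373 by edgeR, did not pass with library totals (0.0655) or without MHCC97L (0.0882).

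**Figure D4:**
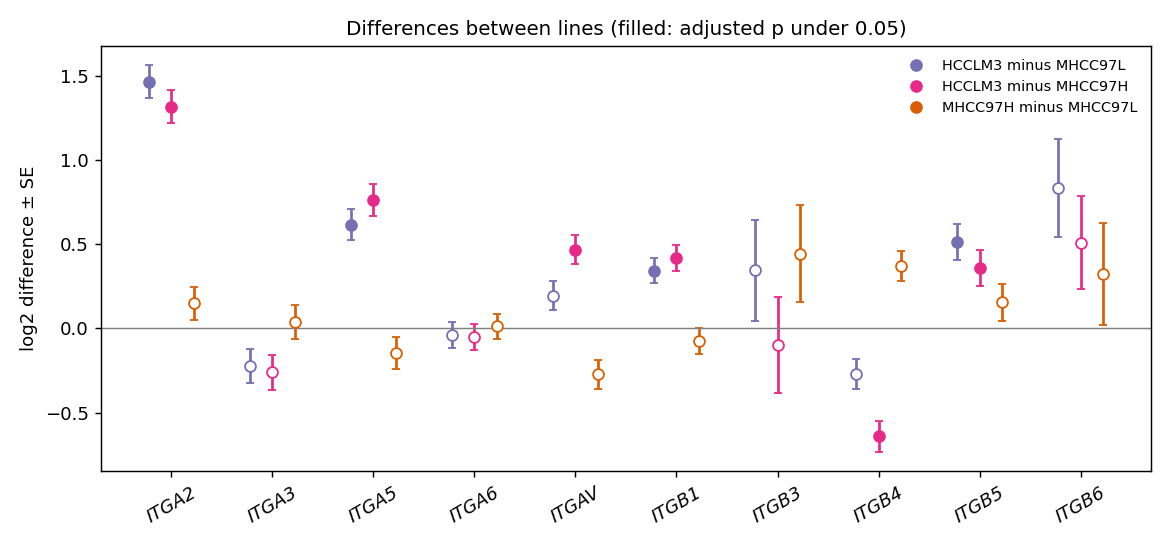
log2 difference ± SE between lines (vertical axis) for each gene: HCCLM3 minus MHCC97L (purple), HCCLM3 minus MHCC97H (pink) and MHCC97H minus MHCC97L (orange), filled where the adjusted p is under 0.05. ITGA2 shows the widest gap (1.46 and 1.32), ITGB4 the only filled point under 0 (-0.64), and no orange point is filled.

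MHCC97H and MHCC97L were closer. 0 of 10 genes passed by edgeR, where 2.45% of all genes did, 1.37% higher and 1.09% lower. At an unadjusted p under 0.05, ITGB4 was higher in MHCC97H (0.37, SE 0.0907, adjusted p 0.0788) and ITGAV lower (-0.27, SE 0.0862, adjusted p 0.164). By that rule 2238 of all 14176 genes passed in either direction. DESeq2 called ITGB4 (adjusted p 0.0171) and limma-voom called 0, where over all genes they called 326 and 249. Without HCCLM3, both genes passed, ITGB4 at an adjusted p of 0.00264 and ITGAV at 0.018 (edgeR).

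For the genes that rose most, the genes with the most similar pattern were found as those with the smallest root mean square difference of centred log2 CPM over the 6 libraries, among the 10406 or 10407 named genes that averaged at least 5 CPM. For ITGA5 these were FIBCD1 (0.0944) and STK38L (0.103), where the median gene lay at 0.70. For ITGA2 they were GRB10 (0.0818) and ATOSB (0.0891), with a median of 0.831. For ITGB6 they were VGLL3 (0.0859) and GPR157 (0.135), and for ITGB3 METRNL (0.20) and BMF (0.207). The last neighbours were farther away, and the low counts of ITGB3 and ITGB6 make their patterns less precise.

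Among the other 16 integrin genes, 11 could be tested and 1 fell, 0 rose, with a median change of -0.10. Of all genes tested, 7.79% rose and 6.65% fell. By DESeq2, which gave 2 of the 11 no adjusted p, 0 rose and 0 fell, and by limma-voom 0 and 1. At an unadjusted p under 0.05 in edgeR 0 rose and 2 fell, where 4325 of all 14176 genes passed in either direction. ITGAX, best known from myeloid cells, fell by 0.50 on the log2 scale (SE 0.112, adjusted p 0.0218, edgeR), from 19.2 to 13.3 CPM in MHCC97L, 7.38 to 5.33 in MHCC97H and 4.73 to 3.44 in HCCLM3. ITGB8, an αv partner that also activates latent TGF-β, had a change of -0.66 (SE 0.203) and did not pass (adjusted p 0.0614, edgeR). Per kilobase of merged exons ITGAM (1.79) and ITGA11 (1.64), a collagen receptor subunit of fibroblasts, were the highest of the 16. ITGA11 averaged 17.8 CPM, with 28.4 CPM in untreated MHCC97H and 5.89 in untreated HCCLM3. The mean was 10.2 CPM for ITGAM, 8.80 for ITGA7, 7.15 for ITGAE, 4.17 for ITGA1, 3.93 for ITGB7, 2.59 for ITGB2 and 1.59 for ITGAL, and ITGA4 had 0 counts. Against MHCC97L, 6 of the 11 were lower in HCCLM3 and 0 higher by edgeR, with 4 and 0 by DESeq2. Of all genes, 14.8% were lower and 15.0% higher there by edgeR. Against MHCC97H, 6 were lower and 1, ITGB7, higher by edgeR, with 3 and 1 by DESeq2. For that comparison 13.9% of all genes were lower and 13.3% higher by edgeR. ITGA1, ITGA11, ITGAL, ITGAM, ITGAX, ITGB7 and ITGB8 did not have whole counts.

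The adaptors that join integrin tails to actin rose in part. Of 30 adaptor genes 10 rose and 0 fell, where 7.79% of all genes tested rose and 6.65% fell. At an unadjusted p under 0.05, 14 rose and 2 fell, where 4325 of all 14176 genes passed in either direction. DESeq2 and limma-voom also called 10 and 0. The median change was 0.17. LIMS2, which binds integrin-linked kinase, rose by 1.34 (SE 0.141) from 5.53 to 14.2 CPM. The kindlin gene FERMT1 rose by 0.77 (SE 0.132), the paxillin gene PXN by 0.48 (SE 0.0743) and LIMS1 by 0.45 (SE 0.0644). TLN1, the talin that activates integrins, had a change of -0.12 and ILK of 0.21, and neither passed. Below 5 CPM on average, the tensin gene TNS1 rose by 2.01 (SE 0.168), from a mean of 1.71 to 6.96 CPM. Its conditions overlapped, and its counts went from 71 to 300 in MHCC97L, 42 to 169 in MHCC97H and 1 to 6 in HCCLM3. In HCCLM3 the counting interval of the change, -0.59 to 7.98, included 0. TLN1, ILK and TNS1 were chosen after their values were seen. LIMS1 and LIMS2 are similar in sequence and did not have whole counts, so reads may be split between them. TLN1, CD151, THBS1, TGFB1, PLAUR and RAB11FIP1 likewise lacked whole counts.

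Partners of the laminin receptors moved unequally. Of 7 hemidesmosome and laminin genes 3 rose and 1 fell, with a median of 0.15. Over all genes tested, 7.79% rose and 6.65% fell. The laminin β3 gene LAMB3 rose by 0.70 (SE 0.0812), from 276 to 441 CPM, and the tetraspanin gene CD151, a partner of α3 and α6 integrins, by 0.33 (SE 0.0659). LAMA3, the α chain of the laminin that holds β3, fell by 0.58 on the log2 scale (SE 0.0635). That laminin is a ligand of α3β1 and α6β4, and these chains changed in different directions.

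Over all genes tested, 7.79% rose and 6.65% fell. Of 26 genes for other integrin ligands 8 rose and 4 fell, with a median of 0.002. Those above 5 CPM with the largest change rose: CCN1 by 1.88, CCN2 by 1.17, COL4A2 by 0.59 and THBS1 by 0.51, all coding for secreted proteins that integrins bind. COL1A1, a collagen gene chosen after its values were seen, rose by 3.93 (SE 0.243) from a mean of 0.402 to 6.15 CPM. FN1, the fibronectin ligand of α5β1 and chosen after its values were seen, fell by 0.42 on the log2 scale (SE 0.0693, adjusted p 0.0063, edgeR) while ITGA5 rose. At an unadjusted p under 0.05 in edgeR, 4325 of all 14176 genes passed in either direction. For latent TGF-β and its activation, 4 of 8 genes rose and 0 fell by that rule. After adjustment, edgeR, DESeq2 (no adjusted p for 1 of the 8) and limma-voom alike called 4 that rose and 0 that fell, with a median of 0.34. They were LTBP2 (0.86), LTBP4 (0.75), LTBP3 (0.53) and TGFB1 itself (0.72, SE 0.0893), which went from 177 to 287 CPM.

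Of 10 membrane partners 3 rose and 0 fell, with 3 and 0 by DESeq2 and by limma-voom. Over all genes tested, 7.79% rose and 6.65% fell by edgeR. At an unadjusted p under 0.05, 4 partners rose and 0 fell, where 4325 of all 14176 genes passed in either direction. The urokinase receptor gene PLAUR rose by 0.76, SLC3A2, whose product binds β1 tails, by 0.32, and BSG by 0.26. Of 13 genes for integrin trafficking 1 rose and 1 fell, close to the 7.79% and 6.65% of all genes. CLIC3, which acts in recycling of α5β1, rose by 0.89 (SE 0.133) and RAB11FIP1 fell by 0.32 on the log2 scale. The medians were 0.16 and -0.04.

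**Figure D5:**
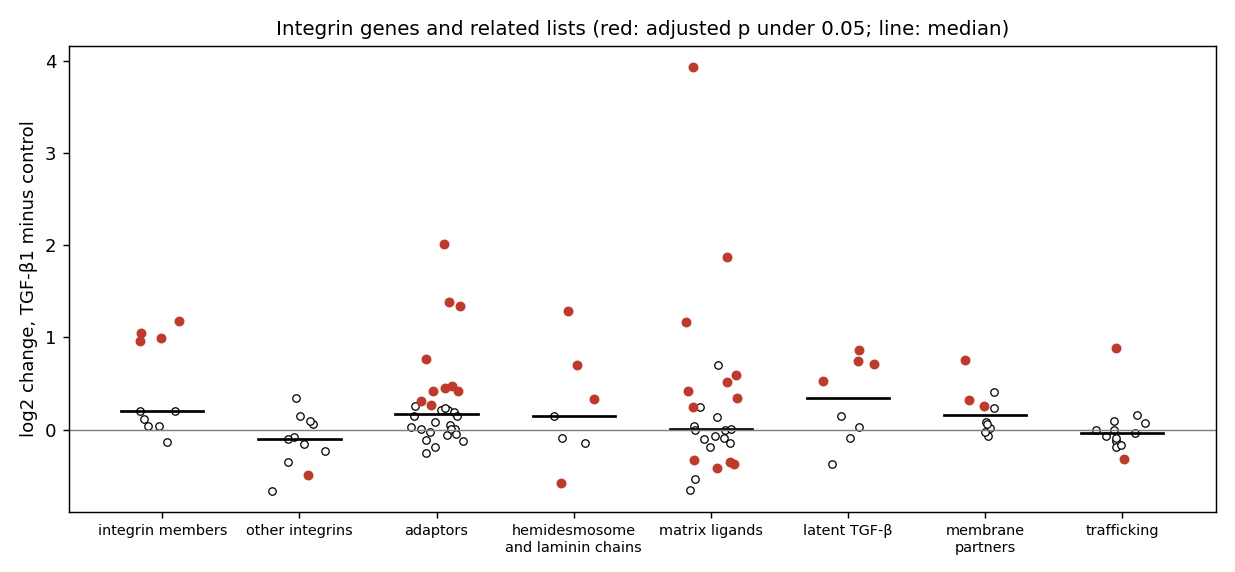
log2 change after TGF-β1 (vertical axis) of each tested gene among the 10 integrin genes and 7 lists of other integrins, adaptors, ligands and partners, red where the adjusted p is under 0.05, with a black line at the median of each list. The 4 red integrin points lie between 0.96 and 1.18, and the medians run from -0.10 (other integrins) to 0.34 (latent TGF-β).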

How the data were processed

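RNA of 6 libraries was sequenced, and the authors deposited a table of expected counts by gene for each of them. The values are named expected counts from the values themselves, since 63.6% to 64.6% of a library were whole numbers. Per the submitters' processing notes, TopHat2 2.1.1, Cufflinks 2.2.1, Cuffdiff 1.3.0 and hg38 were used, without roles; the counting tool and strand setting are not given in the sources used here. Reads that match both a gene and an antisense gene cannot be told apart, and ITGA3 is the member with no overlapping gene in GENCODE 29 of GRCh38, which gave coordinates and exon lengths.

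Counts were rounded, filtered with filterByExpr (14176 genes kept, expression in at least 3 libraries) and scaled by TMM (factors 0.972 to 1.03). All 10 members passed. edgeR 4.0.16 quasi-likelihood tests in R 4.3.3 had terms for line and for treatment (2 residual degrees of freedom), with Benjamini-Hochberg adjustment over all genes. The spread of each gene was moderated toward the trend over all genes, so the p-values draw on more than these 2 degrees of freedom. limma 3.58.1 and DESeq2 1.42.0 were alternatives. The code was tested on simulated data. Whether libraries came from separate cultures is not stated, so p-values may measure technical spread. Libraries of a line are paired by the label of the line, and their deviations from the condition means correlated at 0.587, 0.456 and 0.728 across genes. Within-line changes use a prior count of 2, and their 95% exact conditional binomial intervals cover counting error only.

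The members and lists were chosen with earlier results of these data known. The text names all members and, from each list, up to 4 called genes with the largest change, the same direction in each line and at least 5 CPM on average, and other integrins of at least 1 CPM. Some genes that the rule names are not reported here.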

Additional observations from a re-analysis of the deposited data

Results flagged for a closer look

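ITGA3 moved in opposite directions between lines. Its log2 change after TGF-β1 was 0.28 in MHCC97H (95% counting interval 0.24 to 0.32), -0.049 in MHCC97L (-0.09 to -0.01) and -0.12 in HCCLM3 (-0.17 to -0.08). With library totals in place of TMM the changes were 0.24, -0.09 and -0.19. The difference between lines was not tested, since there is 1 library per line and condition and the intervals cover counting error only.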

How the results depend on the processing

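In the TGF-β1 comparison, the count of 4 integrin genes called was 2 by DESeq2, which gave ITGB6 no adjusted p, and 2 to 4 when a line was left out (without HCCLM3 the 4 were ITGA2, ITGA5, ITGB3 and ITGB5). The line is the replicate block of the paired design: with no replicate block 0 of the 10 members and 10 of all genes passed. At an unadjusted p under 0.05 in that fit there were 3 members and 1651 of all 14176 genes. Over all genes 2047 were called, and 611 without MHCC97L, 981 without MHCC97H and 3971 without HCCLM3. For MHCC97H against MHCC97L, 1 member was called by DESeq2 and 2 without HCCLM3 (that fit called 1296 genes against 348). Levels per length rest on the length used. With the median protein-coding transcript, which is under 1 kb for ITGB1 and ITGB5, they were 197 (ITGA3), 81.9 (ITGA5), 79.6 (ITGA6), 52.6 (ITGAV), 1218 (ITGB1), 0.884 (ITGB3), 358 (ITGB5) and 0.77 (ITGB6). With the longest, added after seeing the data, ITGA3 was 90.4, ITGA5 47.9, ITGA6 48.1, ITGB1 183 and ITGB5 67.6. ITGB3 and ITGB6, at 24 to 89 counts a library, are the least precise members. ITGA2 and ITGA5 passed in each alternative except the fit with no replicate block.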
